A study of Homo sapiens with 18 samples.

Results

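The APOL (apolipoprotein L) genes are a cluster of related genes on human chromosome 22. They were followed here by gene symbol across the 6 groups of an interferon time course in keratinocytes. APOL1 (ENSG00000100342), APOL2 (ENSG00000128335), APOL3 (ENSG00000128284), APOL4 (ENSG00000100336) and APOL6 (ENSG00000221963) made up 5 of the 16472 genes measured. All but APOL4 passed the filter on low values, so 4 of the 13280 genes tested belonged to the family. The relatives APOL5 and APOLD1 were not analysed here.

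APOL proteins carry amphipathic helices that insert into lipid membranes. APOL1 is the secreted member, which circulates on high-density lipoprotein particles and lyses African trypanosomes by forming a pore in their membranes. The other members lack the export signal and act inside the cell: APOL3 attacks the membranes of cytosolic bacteria in interferon-treated cells, APOL2 is associated with the endoplasmic reticulum, and APOL6 holds a BH3-like motif and can promote cell death when overexpressed. Type I interferon binds the IFNAR1/IFNAR2 receptor, JAK1 and TYK2 then pass the signal to transcription factors that include STAT2 and IRF9, and these switch on interferon-stimulated genes, APOL genes among them.

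The cells were NIKS, an established line of immortalized human keratinocytes, maintained over an irradiated mouse J2/3T3 fibroblast feeder. SP100, the targeted gene, encodes a protein of PML nuclear bodies. Stranded mRNA libraries came from SP100 wild-type (WT) and SP100 knockout (KO) cells that were untreated (0 h) or given human interferon alpha 2a at 25 ng/mL for 12 or 48 h, with 3 biological replicates in each of the 6 groups and 18 libraries in all. Column names gave 1 line per genotype (Vec2 for WT and KO5 for KO), so an effect of the knockout and other differences of these lines cannot be told apart. Untreated cells were measured at 0 h alone, so hours of interferon and hours of culture cannot be told apart. How reads from the mouse feeder were treated is not given in the sources used here. Whether the replicates were separate cultures is not stated beyond the word biological, so p-values measure the spread between these samples.

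SP100 RPKM in KO was 50.5%, 55.9% and 46.9% of WT at 0, 12 and 48 h, with no overlap between genotypes at any time (log2 change -0.94, -0.83 and -1.08; SE 0.0590; adjusted p = 4.92e-08, 3.61e-07 and 1.47e-08, limma with Benjamini-Hochberg adjustment). SP100 RNA was therefore reduced but not absent in KO, and it ran from 14.2 to 16.0 RPKM untreated and from 86.5 to 93.2 at 12 h. RPKM per gene does not show which exons or what protein remained. All 6 keratinocyte markers examined were measured, and their summed level ran from 17973 to 21497 RPKM over the libraries. At 12 h KRT6A was higher than untreated in WT and KO (log2 change 0.75 and 0.79), as was COL17A1 (0.55 and 0.61). Also at 12 h, DSG3 rose in WT (0.21), TP63 rose in KO (0.11) and KRT5 fell by 0.17 in WT and by 0.15 in KO. All of these were called by limma. At 48 h KRT6A (0.29 and 0.27), COL17A1 (0.38 and 0.41) and DSG3 (0.22 and 0.20) were called higher in WT and KO. KRT5 was called higher at 48 h in KO (0.12). Of 7 fibroblast markers, COL1A1 and PDGFRB were measured and summed to at most 3.18 RPKM, with WT group means of 1.76, 2.14 and 1.96 and KO group means of 1.67, 2.79 and 2.08 at 0, 12 and 48 h. COL1A1 rose at 12 h in KO (0.53, adjusted p = 0.00421) and was not called in WT (0.15, adjusted p = 0.394, limma). CD14 was the only leukocyte marker of 4 measured, at 5.09, 2.40 and 2.81 RPKM in WT and 5.21, 1.43 and 2.53 in KO. It was called lower by limma at 12 h (log2 change -0.84 in WT and -1.34 in KO) and at 48 h (-0.69 and -0.80). PMEL was the only melanocyte marker of 4 measured, at most 1.57 RPKM. The other markers, those of endothelium and hepatocytes included, were not analysed here, and the part of these marker changes and of other cell types in the APOL levels was not tested. Relative depth recovered from low values differed 1.44-fold between the shallowest and deepest libraries. In bulk RNA, fewer cells expressing a gene and less RNA per cell cannot be told apart.

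In untreated cells, APOL2 and APOL6 supplied most of the family's RNA. RPKM is per gene length, so levels of different genes can be set side by side. In WT at 0 h, APOL2 measured 6.25 ± 0.442 RPKM and APOL6 5.82 ± 0.281 (mean ± SD, n = 3), and their ranges overlapped. APOL1 at 0.983 ± 0.240 and APOL3 at 0.417 ± 0.110 lay below both. In KO at 0 h the ranges of APOL6 (5.76 ± 0.348) and APOL2 (4.77 ± 0.346) were apart, and those of APOL1 (0.670 ± 0.271) and APOL3 (0.400 ± 0.245) overlapped. APOL4 was listed at 0 in 5 of the 6 untreated libraries and at 0.02 RPKM in the sixth.

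After 12 h of interferon all 4 tested members rose in both genotypes, and after 48 h all 4 were still above their untreated level. The limma test with Benjamini-Hochberg adjustment called 4 of 4 higher at 12 h in WT, where 15.1% of all genes tested were called higher and 29.8% lower. At 12 h in KO it called 4 of 4 higher, against 16% higher and 32.8% lower over all genes. At 48 h against 0 h, 4 of 4 were higher in WT (6.52% higher and 6.3% lower over all genes) and in KO (5.9% and 7.42%). The members' median log2 change at 12 h was 2.19 in WT and 1.98 in KO, with an all-gene median of -0.09 in each, and at 48 h it was 1.75 in WT and 1.18 in KO, with all-gene medians of 0.00 and -0.01. APOL3 was under 1 RPKM in every untreated library and APOL1 in all but 1, so these genes entered the test through their interferon groups, and the counts and medians describe these genes and carry no further weight. Changes are on the log2(RPKM + 1) scale, which understates those of low genes.

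**Figure D1:**
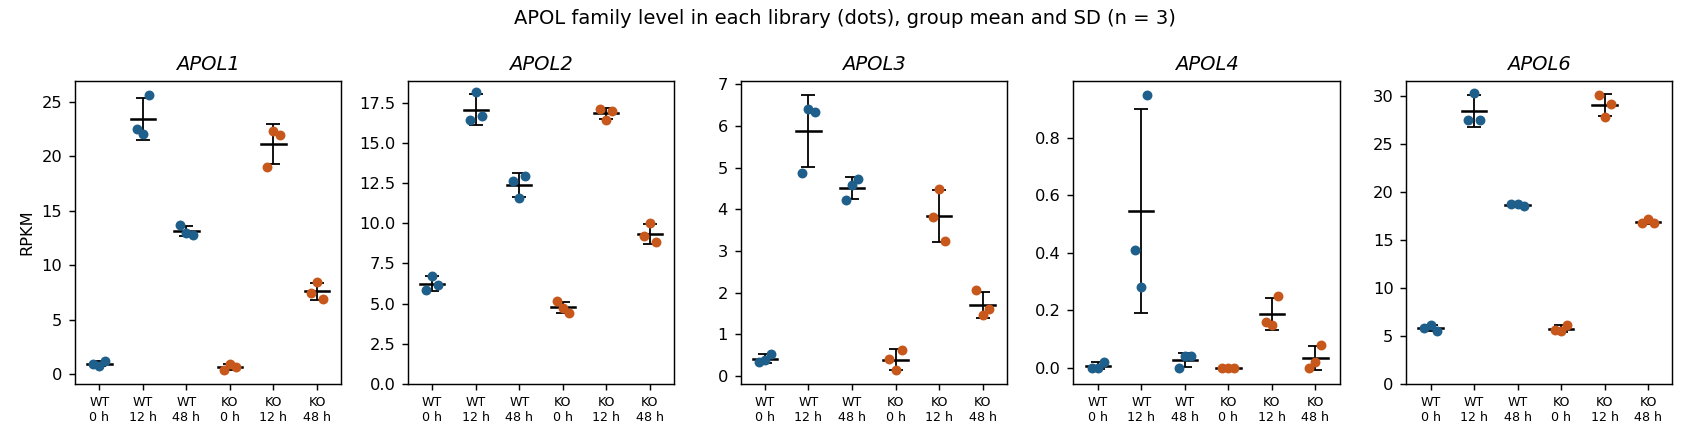
RPKM of each APOL gene (vertical axes, each with its own range) in the 6 groups of genotype and time (horizontal axes). Dots are libraries, with WT in blue and KO in orange, and bars show the group mean and SD of 3 libraries. In each tested gene the interferon groups lie above both untreated groups, and 12 h lies above 48 h within each genotype. APOL4 stays under 1 RPKM throughout.

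APOL1, the secreted pore-forming member, had the largest change of the 4. The WT libraries read 0.97, 0.75 and 1.23 RPKM at 0 h, 22.53, 22.10 and 25.66 at 12 h, and 13.72, 12.99 and 12.81 at 48 h. The KO libraries read 0.41, 0.95 and 0.65 at 0 h, 19.06, 22.38 and 22 at 12 h, and 7.44, 8.48 and 6.89 at 48 h. Every library at 12 h lay above every library at 48 h, and every library at 48 h above every untreated one. Mean RPKM at 12 h was 23.8 times the untreated mean in WT and 31.6 times in KO. The log2 change was 3.63 in WT (SE 0.116, adjusted p = 2.61e-13) and 3.74 in KO (SE 0.116, adjusted p = 1.59e-13, limma with Benjamini-Hochberg adjustment). At 48 h it was 2.84 in WT (adjusted p = 1.12e-11) and 2.37 in KO (adjusted p = 1.56e-10) in the same test. The KO fold at 12 h rests on a smaller untreated mean, and the genotypes' untreated ranges overlapped.

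APOL3, the member that acts on cytosolic bacteria, started lowest of the 4 tested genes. Its WT libraries read 0.33, 0.38 and 0.54 RPKM at 0 h, 4.87, 6.41 and 6.34 at 12 h, and 4.22, 4.57 and 4.73 at 48 h. Its KO libraries read 0.41, 0.15 and 0.64 at 0 h, 3.81, 4.48 and 3.23 at 12 h, and 2.06, 1.47 and 1.6 at 48 h. KO was low beside WT in all 3 libraries at 12 and 48 h, with no overlap (as in 9.77% and 9.29% of all genes tested), while the untreated libraries of the genotypes were intermixed. Mean RPKM at 12 h was 14.1 times the untreated mean in WT and 9.60 times in KO, and at 48 h 10.8 times in WT and 4.28 times in KO. The log2 change at 12 h was 2.27 in WT (SE 0.141, adjusted p = 3.17e-09) and 1.80 in KO (adjusted p = 5.28e-08), and at 48 h 1.96 in WT (adjusted p = 3.81e-08) and 0.96 in KO (adjusted p = 0.000194, limma with Benjamini-Hochberg adjustment). With a pseudocount of 0.1 these 4 changes became 3.54, 3.10, 3.18 and 1.98, all still called.

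APOL2, associated with the endoplasmic reticulum, had the smallest change of the 4 from an untreated level of several RPKM. WT libraries gave 5.86, 6.73 and 6.16 RPKM at 0 h, 16.42, 18.19 and 16.68 at 12 h, and 12.63, 11.57 and 12.97 at 48 h. KO libraries gave 5.13, 4.73 and 4.44 at 0 h, 17.11, 16.47 and 17.02 at 12 h, and 9.19, 10.0 and 8.83 at 48 h. The genotypes overlapped at 12 h alone, and KO was the lower at 0 and 48 h. Mean RPKM at 12 h was 2.74 times the untreated mean in WT and 3.54 times in KO. On the log2 scale the rise was 1.32 in WT (SE 0.0671, adjusted p = 2.05e-10) and 1.63 in KO (adjusted p = 9.85e-12), and at 48 h 0.89 in WT (adjusted p = 7.52e-08) and 0.84 in KO (adjusted p = 1.45e-07, limma with Benjamini-Hochberg adjustment).

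APOL6, the member with a BH3-like motif, was the most abundant of the 5 in every interferon group. It measured 5.80, 6.11 and 5.55 RPKM at 0 h, 27.54, 30.36 and 27.53 at 12 h, and 18.73, 18.81 and 18.51 at 48 h in WT. It measured 5.63, 5.49 and 6.15 at 0 h, 30.18, 27.89 and 29.25 at 12 h, and 16.77, 17.15 and 16.82 at 48 h in KO. The genotypes overlapped at 0 and 12 h, and at 48 h every KO library was below every WT library by a small margin. Mean RPKM at 12 h was 4.89 times the untreated mean in WT and 5.06 times in KO. The log2 rise was 2.11 in WT (SE 0.0530, adjusted p = 9.61e-15) and 2.16 in KO (adjusted p = 6.68e-15) at 12 h, and 1.53 in WT (adjusted p = 1.18e-12) and 1.41 in KO (adjusted p = 3.75e-12) at 48 h, by limma with Benjamini-Hochberg adjustment.

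APOL4, a little-studied intracellular member, was detected mainly at 12 h. The WT libraries at 12 h read 0.41, 0.28 and 0.95 RPKM and the KO libraries 0.16, 0.15 and 0.25, so all 3 KO values lay below all 3 WT values. The same held at 12 h for 9.77% of the genes tested, which did not include APOL4. By 48 h the WT libraries read 0, 0.04 and 0.04 and the KO libraries 0, 0.02 and 0.08, which overlapped with the untreated libraries. No library reached 1 RPKM, and the gene was listed at 0 in 7 libraries. In a fit without the filter, over 16472 genes, limma with Benjamini-Hochberg adjustment called it higher at 12 h in WT (log2 change 0.60, SE 0.121, adjusted p = 0.00109) and lower at 48 h than at 12 h in WT (-0.57, adjusted p = 0.00222). In the same fit it was not called at 12 h in KO (0.25, adjusted p = 0.122) or between the genotypes at 12 h (-0.36, adjusted p = 0.145). Total reads per library are unknown, so no detection limit can be given for its zeros.

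From 12 to 48 h in interferon APOL1, APOL2 and APOL6 fell in both genotypes, and APOL3 fell in KO. In WT, limma with Benjamini-Hochberg adjustment called 0 of 4 members higher and 3 of 4 lower, where 24.6% of all genes were higher and 11.3% lower. In KO it called 0 of 4 higher and 4 of 4 lower, against 27.7% higher and 14% lower over all genes. The members' median log2 change was -0.51 in WT and -0.81 in KO, beside all-gene medians of 0.07 and 0.08. Mean APOL1 at 48 h was 56.2% of its 12 h mean in WT and 36.0% in KO. The corresponding log2 changes of APOL1 were -0.78 (adjusted p = 8.58e-05) and -1.36 (adjusted p = 2.56e-07, limma). For APOL2 the share was 72.5% in WT and 55.4% in KO (log2 change -0.43 and -0.79; adjusted p = 0.000129 and 2.62e-07, limma). For APOL6 it was 65.6% in WT and 58.1% in KO (log2 change -0.58 and -0.75; adjusted p = 8.06e-07 and 3.65e-08, limma). APOL3 at 48 h was 44.5% of its 12 h mean in KO (log2 change -0.83, adjusted p = 0.000223, limma) and 76.7% in WT, where the change of -0.31 was not called (95% interval -0.61 to -0.01, adjusted p = 0.0969). That WT change of APOL3 was called without WT 12 h replicate 1, the lowest of its group (-0.42, adjusted p = 0.0451), and after the RPKM had been rescaled by the median of ratios (-0.39, adjusted p = 0.0408). Its adjusted p ran from 0.0408 to 0.359 over the alternatives.

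The order of the genes changed with treatment. In WT at 12 h the order was APOL6, APOL1, APOL2, APOL3 and APOL4, with no neighbours overlapping, and the KO order at 12 h was the same. At 48 h APOL1 and APOL2 overlapped in WT, and in KO APOL2 lay above APOL1. Per library, the APOL1 to APOL2 ratio of RPKM was 0.159 ± 0.0445, 1.38 ± 0.162 and 1.07 ± 0.0699 at 0, 12 and 48 h in WT, and 0.142 ± 0.0606, 1.26 ± 0.127 and 0.813 ± 0.0340 in KO (mean ± SD, n = 3). Across the groups, WT and KO at 12 h were the 2 highest for APOL1, APOL2 and APOL6 and overlapped, followed by WT at 48 h and KO at 48 h without overlap. APOL3 differed: WT at 12 h was followed by WT at 48 h, whose range overlapped that of KO at 12 h, and KO at 48 h came next.

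Summed over the 5 genes, family RPKM was 13.5 ± 0.505, 75.4 ± 3.17 and 48.8 ± 0.703 at 0, 12 and 48 h in WT and 11.6 ± 0.280, 71.1 ± 0.741 and 35.6 ± 1.46 in KO (mean ± SD, n = 3). The sum at 12 h was 5.60 times the untreated sum in WT and 6.14 times in KO, and at 48 h 3.62 and 3.07 times. In WT, APOL1 made up 7.32% ± 1.88 of the untreated sum, 31.1% ± 2.36 of the sum at 12 h and 27.0% ± 0.861 of that at 48 h. In KO its share was 5.80% ± 2.44, 29.7% ± 2.28 and 21.3% ± 1.39. The share of APOL2 went the other way, in WT from 46.3% ± 1.6 untreated to 22.7% ± 0.968 at 12 h, in KO from 41.2% ± 3.51 to 23.7% ± 0.627. The APOL3 share at 48 h was 9.24% ± 0.594 in WT and 4.82% ± 0.932 in KO. APOL6 was the largest component after interferon, with WT shares of 37.8% ± 1.86 and 38.3% ± 0.787 and KO shares of 40.9% ± 1.92 and 47.5% ± 1.49 at 12 and 48 h.

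**Figure D2:**
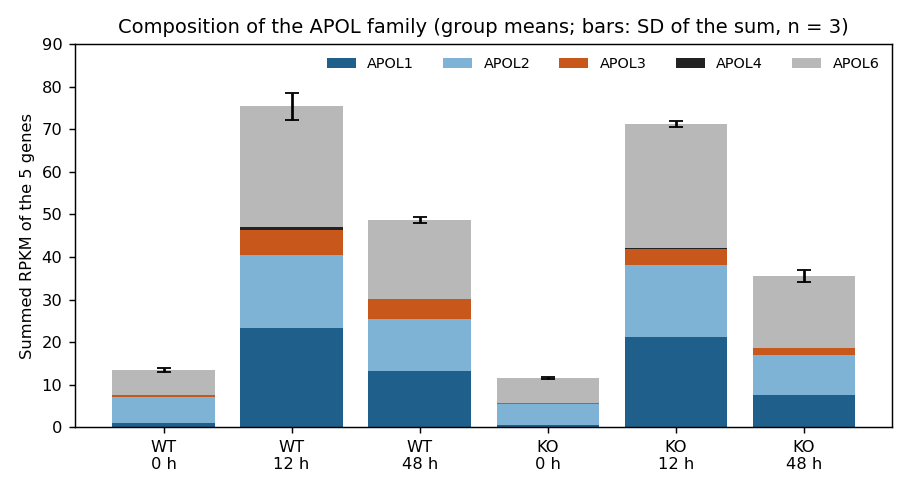
Summed RPKM of the 5 APOL genes (vertical axis) in the 6 groups (horizontal axis), with each bar divided into the group means of the genes. Error bars are the SD of the sum over 3 libraries. APOL2 and APOL6 fill most of the untreated bars, APOL1 makes up 31.1% of the WT bar and 29.7% of the KO bar at 12 h, and the KO bar at 48 h (35.6 RPKM) is shorter than the WT bar (48.8 RPKM).

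The genotype comparison asks whether APOL levels differed between cells labelled SP100 KO and WT at each time. In untreated cells, limma with Benjamini-Hochberg adjustment called 0 of 4 members higher and 1 of 4 lower in KO, where 2.82% of all genes were higher and 2.07% lower. An unadjusted p under 0.05 was reached by 2 of the 4, and by 2400 of the 13280 genes. The members' median log2 difference was -0.14, and the all-gene median 0.02. The gene called was APOL2, whose KO mean was 76.3% of WT (log2 difference -0.33, SE 0.0671, adjusted p = 0.00796) and whose KO libraries all lay below WT, as in 8.85% of all genes tested. That call was lost without WT 0 h replicate 2, the highest of its group (-0.28, adjusted p = 0.050), and in a fit of the untreated libraries alone (-0.33, adjusted p = 0.103). Over its alternatives the adjusted p ran from 0.00549 to 0.103. APOL1 was not called (-0.25, 95% interval -0.50 to -0.01, adjusted p = 0.259, limma), and with its low level the estimate went from -0.53 with a pseudocount of 0.1 to -0.14 without KO 0 h replicate 1 and -0.17 without WT 0 h replicate 3. APOL3 (-0.03, 95% interval -0.33 to 0.27) and APOL6 (-0.01, 95% interval -0.13 to 0.10) were not called, with adjusted p = 0.947 and 0.934 in limma.

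At 12 h the test called 0 of 4 members higher and 0 of 4 lower in KO, where limma with Benjamini-Hochberg adjustment called 1.6% of all genes higher and 2.02% lower. An unadjusted p under 0.05 was reached by 1 of the 4, and by 2256 of the 13280 genes. The members' median log2 difference was -0.08, and the all-gene median 0.01. That member was APOL3, with a KO mean at 65.4% of WT (log2 difference -0.51, 95% interval -0.81 to -0.21, adjusted p = 0.0605, limma). Every KO library of APOL3 lay below every WT library, as in 9.77% of all genes tested. The APOL3 difference was called without WT 12 h replicate 1 (-0.62, adjusted p = 0.0470) and with median-of-ratios scaling (-0.52, adjusted p = 0.0493), in a range of adjusted p from 0.0470 to 0.311 over its alternatives. KO means of the other tested members were 90.3% of WT for APOL1, 98.7% for APOL2 and 102.2% for APOL6. Their 95% intervals on the log2 scale were -0.39 to 0.10 (adjusted p = 0.593), -0.16 to 0.13 (adjusted p = 0.937) and -0.08 to 0.14 (adjusted p = 0.833) by limma.

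At 48 h APOL1, APOL2 and APOL3 were lower in KO than in WT. Limma with Benjamini-Hochberg adjustment called 0 of 4 members higher and 3 of 4 lower, where 2.03% of all genes were higher and 2.16% lower. An unadjusted p under 0.05 was reached by all 4, and by 2173 of the 13280 genes. In all 4 every KO library lay below every WT library, as in 9.29% of all genes tested. The members' median log2 difference was -0.55, and the all-gene median 0.01. APOL3 had the lowest share of WT, 37.9% (log2 difference -1.03, SE 0.141, adjusted p = 0.000308, limma). APOL1 stood at 57.7% of WT (log2 difference -0.72, SE 0.116, adjusted p = 0.00118, limma). APOL2 stood at 75.4% of WT (log2 difference -0.37, SE 0.0671, adjusted p = 0.00322, limma), close to its 76.3% before interferon. APOL6 stood at 90.5% of WT and was not called (log2 difference -0.14, 95% interval -0.25 to -0.02, adjusted p = 0.195, limma). The 3 calls held in every alternative run in which the gene was tested, with the highest adjusted p at 0.0349 for APOL1, 0.0494 for APOL2 and 0.0138 for APOL3. Among markers of other cell types, group means at 48 h were 2.81 RPKM in WT and 2.53 in KO for CD14, 1.96 and 2.08 for the fibroblast pair, and 0.97 and 0.81 for PMEL. Of the keratinocyte markers, DSG3, a desmosomal cadherin, was higher in KO at 48 h (0.28, adjusted p = 0.00464) and COL17A1, a hemidesmosomal collagen, lower (-0.17, adjusted p = 0.0214, limma). Both were called in the same directions in untreated cells (DSG3 0.29, adjusted p = 0.00293, and COL17A1 -0.20, adjusted p = 0.00689, limma). The part of these 2 markers in the APOL differences was not tested.

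**Figure D3:**
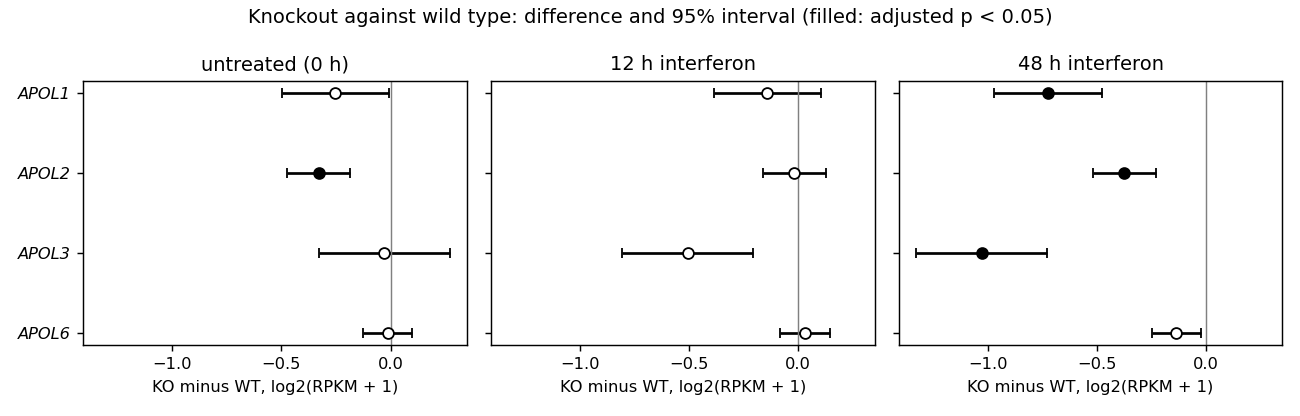
KO minus WT difference on the log2(RPKM + 1) scale (horizontal axes) for the 4 tested APOL genes (vertical axis) at 0, 12 and 48 h. Points are limma estimates with 95% intervals, filled where the adjusted p was under 0.05. At 48 h APOL1, APOL2 and APOL3 are filled and lie left of 0, and APOL6 is close to 0.

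A called difference at 48 h and none at 12 h does not show that the genotype difference changed between these times. The interaction terms test its change from 0 to 12 h and from 0 to 48 h. Its change from 12 to 48 h is the contrast of the next paragraph. For the 12 h response, limma with Benjamini-Hochberg adjustment called 0 of 4 members higher and 0 of 4 lower, against 0.0753% higher and 0% lower over all genes. For the 48 h response it called 0 of 4 in each direction, against 0.0678% higher and 0.0151% lower. Unadjusted p-values under 0.05 were reached by 2 of the 4 at 12 h and by 2 at 48 h, and over all genes by 764 and 826. The interaction for APOL3 at 48 h, the farthest from 0 among the members, was -1.0 on the log2 scale (SE 0.20, 95% interval -1.42 to -0.57, adjusted p = 0.111, limma). It was called without KO 0 h replicate 2, the lowest APOL3 value of all libraries (-1.13, adjusted p = 0.0446), and its adjusted p ran from 0.0446 to 0.736 over the alternatives. For APOL1 at 48 h the interaction was -0.47 (95% interval -0.82 to -0.12, adjusted p = 0.714, limma). APOL2 gave -0.04 at 48 h (95% interval -0.24 to 0.16, adjusted p = 0.964) and 0.31 at 12 h (95% interval 0.11 to 0.51, adjusted p = 0.574, limma). At 12 h APOL3 gave -0.48 (95% interval -0.90 to -0.05, adjusted p = 0.811), APOL1 0.11 (95% interval -0.24 to 0.46, adjusted p = 0.987) and APOL6 0.05 (95% interval -0.11 to 0.20, adjusted p = 0.990, limma). APOL6 gave -0.12 at 48 h (95% interval -0.28 to 0.04, adjusted p = 0.853, limma).

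A further contrast, added after the values had been seen, set the change from 12 to 48 h in KO against that in WT. It was negative for all 4 tested members. The difference was -0.58 for APOL1 (95% interval -0.93 to -0.23) and -0.36 for APOL2 (-0.56 to -0.15). It was -0.52 for APOL3 (-0.95 to -0.10) and -0.17 for APOL6 (-0.33 to -0.01). All 4 had an unadjusted p under 0.05, as did 904 of all genes. After Benjamini-Hochberg adjustment in limma 0 of 4 were called in either direction (adjusted p = 0.464, 0.433, 0.645 and 0.702), and 0% of all genes were called higher or lower. A difference between genotypes in the decline was therefore not called for any of these 4 genes. APOL4, under 1 RPKM in every library, went the other way in the fit without the filter (0.37, SE 0.171, adjusted p = 0.770, limma).

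The genes with the profile most like each member were ranked by Pearson's r of log2(RPKM + 1) over the 18 libraries. The libraries fall into the same 6 groups and are not independent points, so r is given as a description. APOL1 was closest to TRIM21 (r = 0.994), a cytosolic antibody receptor, then SAMD9 (0.993) and TLR3 (0.991), a sensor of double-stranded RNA. APOL2 was closest to SPATS2L (0.987), then GBP1 (0.985), an interferon-induced GTPase, and IFIT2 (0.981). APOL3 was closest to TIMP3 (0.961), an inhibitor of matrix metalloproteinases, then RTP4 (0.960) and TLR3 (0.959). APOL6 was closest to IFI16, a DNA sensor, TAP1, a peptide transporter of antigen presentation, and LAMP3, each with r = 0.998. Between members, r ran from 0.933 for APOL3 with APOL6 to 0.988 for APOL1 with APOL6.

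Genes of the interferon pathway gave a frame for the APOL changes. Of the 10 genes reported here all were measured and all but SOCS1 were tested. In WT at 12 h limma with Benjamini-Hochberg adjustment called 5 of the 9 higher and 1 lower, with a median log2 change of 0.31. Over all genes 15.1% were called higher and 29.8% lower, with a median of -0.09. The transcription factors STAT2 (2.34), IRF9 (3.36) and IRF1 (1.25), the kinase JAK1 (0.31) and the inhibitor USP18 (5.07) rose, and the receptor chain IFNAR2 fell by 0.50. In KO at 12 h 5 rose and 2 fell, with a median of 0.41. There 16% of all genes were called higher and 32.8% lower, with a median of -0.09. At 48 h 4 of the 9 were higher in each genotype and none was lower than untreated. From 12 to 48 h, 4 fell and 2 rose in WT, and 5 fell and 1 rose in KO. Over all genes 11.3% fell and 24.6% rose in WT, and 14% and 27.7% in KO. The counts lower at 12 h and higher from 12 to 48 h did not exceed the all-gene shares.

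Between the genotypes, 0 of these 9 genes were called at 12 h and 0 at 48 h by limma, and an unadjusted p under 0.05 was reached by 2 at 12 h and 1 at 48 h. With 1.6% of all genes higher and 2.02% lower at 12 h, and 2.03% and 2.16% at 48 h, no call among 9 genes is near the background. In untreated KO cells IRF9 was lower (-0.53, adjusted p = 0.0109) and USP18 higher (0.32, adjusted p = 0.000629, limma with Benjamini-Hochberg adjustment). There 2.82% of all genes were called higher and 2.07% lower. USP18, an inhibitor of receptor signalling, was the only 1 of the 9 called in an interaction (-0.38 at 48 h, adjusted p = 0.0426, limma).

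The guanylate-binding proteins, GTPases that act with APOL3 on cytosolic bacteria, were examined in the same way. Of 5 listed, GBP2 was not analysed here, GBP5 was below the filter, and GBP1, GBP3 and GBP4 were tested. GBP1 and GBP3 rose at 12 h and fell from 12 to 48 h in each genotype by limma with Benjamini-Hochberg adjustment. At 12 h 15.1% of all genes were called higher in WT and 16% in KO. From 12 to 48 h 11.3% of all genes were called lower in WT and 14% in KO. GBP4 reached 1 RPKM in the 12 h libraries alone (1.01 to 1.84), so it entered the test through the groups where it was high, and its calls in the same directions carry no further weight. GBP1 measured 2.35 ± 0.284, 33.3 ± 1.75 and 15.1 ± 0.793 RPKM in WT and 2.07 ± 0.0902, 32.9 ± 1.07 and 9.38 ± 0.830 in KO at 0, 12 and 48 h (mean ± SD, n = 3). In each genotype its mean was the highest of the 3 at 12 h, and that of GBP3 was the highest at 0 and 48 h. GBP1 was the only 1 of the 3 called between genotypes, at 48 h (-0.63, adjusted p = 4.68e-05, limma), where 2.16% of all genes were called lower. GBP3 (-0.22, adjusted p = 0.338) and GBP4 (-0.10, adjusted p = 0.815) were not called there.

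Genes beside the APOL genes on chromosome 22 gave log2 changes at 12 h of smaller size than those of the 4 tested members. In GENCODE 29, APOL6 lies on the forward strand and is separated from APOL3, APOL4 and APOL2 (all reverse) and APOL1 (forward) by APOL5 and RBFOX2, and MYH9 follows APOL1. No annotated gene overlaps any of the 5 members. Of 11 listed neighbours 9 were tested, and RASD2 and MB were not analysed here. At 12 h in WT limma with Benjamini-Hochberg adjustment called 1 of the 9 higher (MYH9, 0.13, adjusted p = 0.0494) and 3 lower (HMGXB4 -0.23, RBFOX2 -0.14 and EIF3D -0.15), and their median log2 change was -0.11. At 12 h in KO 2 were higher and 5 lower, with a median of -0.17. The WT counts were near the all-gene shares of 15.1% higher and 29.8% lower, and the KO shares over all genes were 16% and 32.8%. RBFOX2, an RNA-binding splicing regulator, went from 44.9 ± 1.78 RPKM untreated to 40.5 ± 1.79 in WT, and MYH9, non-muscle myosin heavy chain, from 199.8 ± 5.36 to 219.5 ± 7.80 (mean ± SD, n = 3). In the genotype comparisons 0 of the 9 were called at any time by limma, and an unadjusted p under 0.05 was reached by 1, 1 and 2 of them at 0, 12 and 48 h. Over all genes, 2.82% were called higher and 2.07% lower at 0 h, 1.6% and 2.02% at 12 h, and 2.03% and 2.16% at 48 h.

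**Figure D4:**
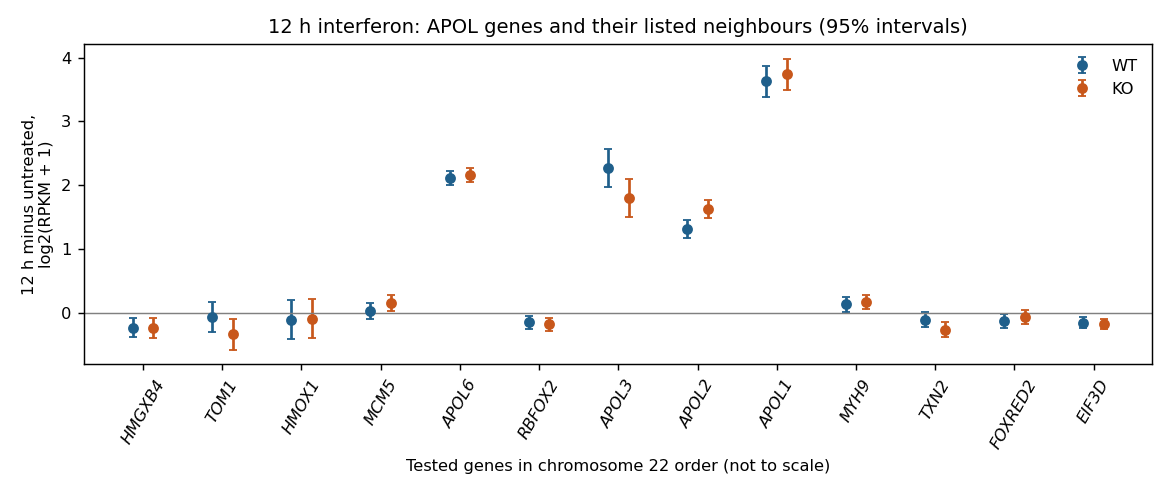
Change from 0 to 12 h of interferon on the log2(RPKM + 1) scale (vertical axis) for the tested genes in their order along chromosome 22 (horizontal axis, not to scale). Points are limma estimates with 95% intervals, WT in blue and KO in orange. The 4 tested APOL genes lie between 1.32 and 3.74, and the 9 neighbours lie close to 0 on both sides of them.

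Apolipoproteins outside the family were examined beside the APOL genes. Of 9 listed genes 7 were measured and 6 tested. Limma with Benjamini-Hochberg adjustment called 0 of 6 higher and 3 lower at 12 h in WT: APOM (-0.44), APOO (-0.55), a mitochondrial protein, and CLU (-0.28), the extracellular chaperone clusterin. At 12 h in KO it called 0 of 6 higher and 5 lower. Over all genes 15.1% were higher and 29.8% lower in WT, and 16% and 32.8% in KO, so the absence of a higher call among 6 genes is near the background. An unadjusted p under 0.05 was reached by 0 higher and 4 lower genes in WT, and by 0 and 5 in KO. CLU was the only 1 of the 6 called at 48 h, and it was higher than untreated in WT (0.57) and KO (0.38). At 48 h 6.52% of all genes were called higher and 6.3% lower in WT, and 5.9% and 7.42% in KO. CLU was also the only 1 called between genotypes, higher in untreated KO (0.42, adjusted p = 0.0376, limma), where 2.82% of all genes were called higher.

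Similar sequences can trade reads between family members. In GENCODE 29 transcripts, 0.608% of the 50-base stretches of APOL1 also occur in APOL2 or APOL3, 0.383% of those of APOL2 and 0.140% of those of APOL3 occur in APOL1, and none of those of APOL4 or APOL6 occur in another member. Counting any gene, the shares were 3.91% for APOL1, 1.64% for APOL2, 0.140% for APOL3, 0.696% for APOL4 and 0.238% for APOL6. How reads that matched several genes were assigned is not given in the sources used here.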

How the data were processed

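The values deposited by the authors are RPKM (reads per kilobase of gene, scaled to library size), in 1 table of 16472 Ensembl genes and 18 libraries. The submitters' processing notes name cutadapt, STAR 2.6.1, RSEM 1.3.0, limma 3.50.3 and build hg19, with no role or order. The reads that define library size, the annotation and the gene filter are not given in the sources used here. Total reads are unknown, so no counting interval was computed. Relative depth was estimated from 376 low genes, with 71.7% of the values used within 3% of the fitted level assumed to be a single read.

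Symbols were matched by gene ID and named 15666 of 16472 genes. Genes with at least 1 RPKM in at least 3 libraries (13280, of which 12819 were named) were tested on log2(RPKM + 1) in limma 3.58.1 (R 4.3.3). The fit was a cell-means model of all 18 libraries with trended variances. Benjamini-Hochberg adjustment ran over all tested genes per comparison, with a threshold of 0.05. The procedure was tested on simulated data.

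The family and the gene lists (interferon pathway, guanylate-binding proteins, neighbours, other apolipoproteins, cell type markers) were chosen with earlier results of these data known. An item of the interferon pathway list is not reported here and is outside its counts. Named genes were the members, SP100, list genes behind a count, and for each tested member the 3 named genes with the highest correlation. Alternatives were a pseudocount of 0.1, no filter, a mean of at least 5 RPKM, median-of-ratios scaling, untrended variances, a replicate block, only the compared libraries, and leaving out each library. A table of RefSeq promoters (GRCh38.p14) matched 0 of the 5 members, so no motif search was run. No coordinates are given, because the annotation used here is not of build hg19.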

Additional observations from a re-analysis of the deposited data

Results flagged for a closer look

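USP18, an inhibitor of interferon receptor signalling and not a member of the APOL family, responded differently in the 2 genotypes: its genotype by interferon interaction at 48 h was -0.38 on the log2 scale (SE 0.0669, 95% interval -0.52 to -0.24, adjusted p = 0.0426, limma with Benjamini-Hochberg adjustment). USP18 measured 1.3 ± 0.0529 RPKM untreated and 38.0 ± 1.16 at 48 h in WT, and 1.87 ± 0.146 and 36.2 ± 0.631 in KO (mean ± SD, n = 3). Untreated KO was called higher than untreated WT (0.32, adjusted p = 0.000629, limma). At 48 h the ranges of the genotypes overlapped and no difference was called. Most of the interaction term therefore comes from the low untreated levels.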

How the results depend on the processing

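Of 895 values recomputed under the alternatives, 876 were labelled the same. For the change of a gene, that meant the same direction and side of the threshold. For a count of members called, it meant an equal or close count, so a single call could differ. KO against WT in untreated cells called 1 member, and 0 with only the libraries of the groups compared, with a range of 0 to 1 when each library was left out (0 without WT 0 h replicate 2). KO against WT at 12 h called 0 members, 1 with median-of-ratios scaling, and 0 to 1 when each library was left out (1 without WT 12 h replicate 1). The genotype by interferon term at 48 h called 0 members, and 0 to 1 when each library was left out (1 without KO 0 h replicate 2). The signs of 5 differences near 0 depended on single libraries, with left-out ranges on the log2 scale as follows. In untreated KO against WT, APOL3 ran from -0.15 to 0.11 and APOL6 from -0.055 to 0.017. At 12 h APOL2 ran from -0.044 to 0.026. The interaction of APOL1 at 12 h ran from -0.0041 to 0.23 and that of APOL2 at 48 h from -0.090 to 0.0021. The cause was not tested.

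With the replicate number as a block, every comparison called as many members as without it (4, 4 and 3 for 12 h, 48 h and 48 against 12 h in WT; 4, 4 and 4 in KO; 1, 0 and 3 between genotypes at 0, 12 and 48 h; 0 in each interaction), and APOL3 at 48 h had an adjusted p of 0.00102 in limma. Deviations from group means gave little sign of pairing by number: 2 of 45 same-number pairs correlated above 0.1, with a median of -0.013. The labels do not say whether a number marks a shared batch. A mean of at least 5 RPKM removed APOL3, which then had no value. Total reads are unknown, so the counting error behind APOL4 and the untreated levels of APOL1 and APOL3, near or under 1 RPKM, was not measured.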
